A study of Mus musculus with 9 samples.

Results

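The genes described here are 9 genes of the Hedgehog pathway, listed by name for their role in the pathway, with earlier results of these data known: the ligands *Shh* and *Ihh*, the receptor *Ptch1*, the transducer *Smo*, the transcription factors *Gli1*, *Gli2* and *Gli3*, the ligand-binding inhibitor *Hhip* and the Gli inhibitor *Sufu*. All 9 were found among the 24138 loci of the expression table. RNA-seq was performed on whole mouse kidneys at E15.5, and each genotype was represented by 3 kidneys and 3 libraries, 9 in all. *Ntn1* fl/fl kidneys (WT) carried floxed *Ntn1* and no Cre. *Foxd1* GC/+;*Ntn1* fl/+ kidneys (HET) and *Foxd1* GC/+;*Ntn1* fl/fl kidneys (MUT) both carried the GFP-Cre insertion in 1 *Foxd1* allele, so HET and MUT share a reduced *Foxd1* dose that WT lacks. *Foxd1* drives the Cre in stromal progenitors. Mesangial cells, vascular mural cells and the renal interstitium descend from these progenitors, among other cells, so recombination need not be confined to the progenitors. Cell types outside this lineage are not targeted directly. The samples were of mixed sex. The kidneys came from 3 separate crosses. Where the 3 libraries of a genotype are given one by one, they follow the order of their numbers. Nothing in the labels ties a library number to a litter, and p-values measure the spread between these kidneys.

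Hedgehog ligands are secreted and bind Ptch1, which in the absence of ligand holds Smo inactive. When ligand is bound, Smo acts at the primary cilium, the Gli proteins are no longer processed to repressors or held by Sufu, and Gli activators switch on target genes. *Ptch1*, *Gli1* and *Hhip* are themselves such targets, so their transcripts are widely read as a sign of pathway activity, while *Smo*, *Sufu*, *Gli2* and *Gli3* are not generally counted among them. In the developing kidney and ureter, Shh comes from the epithelium of the ureter and the medullary collecting ducts and signals to the mesenchyme around it.

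*Ptch1* and *Hhip* encode the receptor and the ligand trap that the pathway induces against itself, and their within-library ratio is described further on, so their promoter windows are shown. Each window runs 5′ to 3′ on the gene's strand from 250 bases before to 50 bases after the transcription start of RefSeq on GRCm38.p6. *Ptch1* lies at chr13:63565686-63565985 on the minus strand and *Hhip* at chr8:80057959-80058258 on the minus strand, and capitals mark GC boxes (GGGCGG on either strand).
Ptch1: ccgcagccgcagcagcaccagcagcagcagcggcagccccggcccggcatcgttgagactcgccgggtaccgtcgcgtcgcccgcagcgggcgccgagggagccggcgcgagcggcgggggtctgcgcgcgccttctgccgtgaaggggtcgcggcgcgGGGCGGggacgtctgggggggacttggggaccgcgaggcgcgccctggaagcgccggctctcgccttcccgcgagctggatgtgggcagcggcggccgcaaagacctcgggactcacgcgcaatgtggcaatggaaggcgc
Hhip: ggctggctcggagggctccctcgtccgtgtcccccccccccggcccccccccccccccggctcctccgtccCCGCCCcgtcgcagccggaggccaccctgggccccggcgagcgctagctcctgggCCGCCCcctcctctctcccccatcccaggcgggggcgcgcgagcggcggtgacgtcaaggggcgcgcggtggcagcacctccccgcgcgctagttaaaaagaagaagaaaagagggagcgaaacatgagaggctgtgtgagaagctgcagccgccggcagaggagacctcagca

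Windows were available for 7 of the 9 genes, *Shh* and *Gli1* being without one. The *Ptch1* window was 76.3% G+C with 47 CpG dinucleotides and the *Hhip* window 73.7% with 30, against medians of 52.7% and 7 over all 32851 windows. A GC box was found in 6 of the 7 windows, once in *Ptch1* and at 2 positions in *Hhip*, and in 35.7% of all windows. The Gli-binding sequence TGGGTGGTC, searched on both strands, was in 0 of the 7 windows and in 0.253% of all windows, and its last 8 bases GGGTGGTC, which the longer sequence contains, were in 0 of the 7 and in 0.807% of all. These are matches of letters within 300 bases, and sites farther from the start were not searched.

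Summed over all loci, the libraries held 453753 to 545598 FPKM, and the number of reads behind them is unknown. The spacing of low FPKM gives a rough depth relative to WT-1, from 0.574 in WT-2 and 0.616 in MUT-3 to 1.32 in MUT-1, with the other libraries between 0.933 and 1.07. *Ntn1*, the targeted gene, was at 17.8 to 28.9 FPKM in WT, 12.02 to 16.5 in HET and 10.8 to 16.5 in MUT, so it set WT apart from both other genotypes but did not separate HET from MUT. *Foxd1* was at 25.8 to 33.7 FPKM in WT, 20.2 to 21.7 in HET and 22.5 to 24.8 in MUT. Kidney markers were abundant in every library, from *Calb1* of the ureteric epithelium to *Cited1* of nephron progenitors. A pair of HET libraries stood apart by markers of other tissues. Summed liver markers were 837 FPKM in HET-2 against 33.7 to 59.6 in the other libraries. Summed skeletal muscle and cartilage markers were 96.1 FPKM in HET-3 against 12.5 to 22.1. The cartilage gene *Col2a1* had no part in this, at 7.73 FPKM in HET-3 within a range of 5.07 to 11.0 over the libraries. HET-2 was also highest for summed erythroid markers, at 3485 FPKM against 1920 to 2294, and for adrenal markers, at 16.2 against 3.84 to 6.52. In whole kidney, fewer cells of a type and less RNA per cell cannot be told apart.

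The levels of the 9 genes covered a wide range. FPKM is scaled to transcript length, so levels of different genes can be set side by side. *Smo* was by far the most abundant at a mean of 69.7 FPKM over the 9 libraries, followed by *Sufu* (21.2), *Ptch1* (16.1), *Gli1* (14.9), *Gli3* (8.39), *Gli2* (5.11), *Shh* (2.38), *Ihh* (1.18) and *Hhip* (0.725). The ranges over libraries of *Sufu* and *Ptch1*, of *Ptch1* and *Gli1*, of *Shh* and *Ihh*, and of *Ihh* and *Hhip* overlap, so these neighbours are not ordered beyond their spread. *Smo* stood above every value of the others, and *Gli1*, *Gli3*, *Gli2* and *Shh* formed steps with no overlap between one and the next. The genes also varied to different degrees. The coefficient of variation over the 9 libraries was lowest for *Smo* (7.35%) and between 11.96% and 13.7% for *Gli1*, *Gli3*, *Gli2* and *Sufu*, whereas it was 35.3% for *Ptch1* and 39.6% for *Ihh*.

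**Figure D1:**
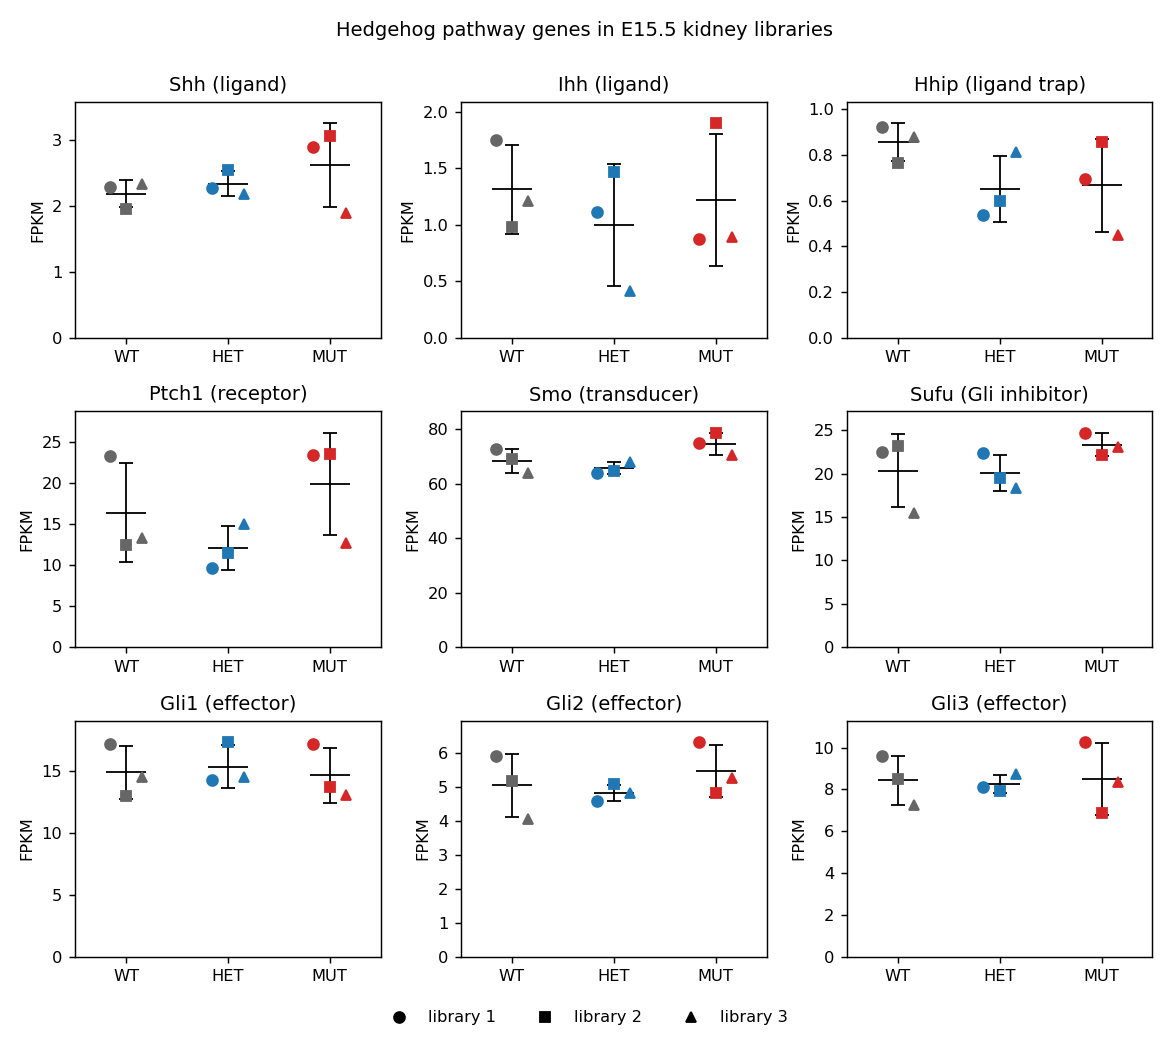
FPKM (vertical axes, from 0) of the 9 Hedgehog genes in WT, HET and MUT kidneys. Each point is a library, its shape gives the library number, and the black bars are the mean and SD of 3 libraries. *Ptch1* is at 23.4 to 23.6 FPKM in WT-1, MUT-1 and MUT-2 and at 15.0 or less elsewhere, and *Smo* is the gene whose 3 MUT libraries all lie above its 3 HET libraries.

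*Shh*, the ligand of the ureter and medullary collecting duct epithelium, was low in whole kidney. Its FPKM was 2.28, 1.95 and 2.33 across the WT libraries, 2.28, 2.55 and 2.18 across HET and 2.90, 3.06 and 1.89 across MUT. MUT-1 and MUT-2 were the 2 highest libraries and MUT-3 the lowest, so the MUT range enclosed both other genotypes. The locus (chromosome 5, 28456839 to 28719209, mm10) is assembled together with the antisense transcript 9530036O11Rik, which has a value of its own of at most 0.133 FPKM. The kit that made the libraries preserves strand, but whether strand was used when reads were assigned is not given in the sources used here.

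*Ihh*, the other ligand measured (chromosome 1, 74945317 to 74951651), was lower still and varied the most. It was at 1.75, 0.977 and 1.21 FPKM across the WT libraries, 1.11, 1.46 and 0.411 across HET and 0.874, 1.90 and 0.889 across MUT. The extremes, HET-3 and MUT-2, differ 4.61-fold and the 3 genotypes overlap throughout. *Shh* exceeded *Ihh* in all 9 libraries, by 1.30-fold in WT-1 to 5.30-fold in HET-3. *Dhh*, the third ligand, known for its role in gonad and nerve, was at 0.702 to 1.13 FPKM.

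The summed level of 12 proximal tubule markers, of which *Fxyd2* was the most abundant (mean 140 FPKM), moved with *Ihh*. Pearson's r over the 9 libraries was 0.80 (exact permutation p = 0.00751, adjusted to 0.0225 over 3 relations) and Spearman's rho was 0.78 (exact permutation p = 0.0172, adjusted to 0.0517). Without HET-3 and MUT-3, the libraries farthest from the median of the marker sum, r was 0.58 (exact permutation p = 0.158), so the relation rests on those libraries. For *Shh*, r was 0.56 with 8 urothelium markers (exact permutation p = 0.117, adjusted to 0.175). It was -0.11 with 12 markers of ureteric stalk and collecting duct (exact permutation p = 0.773, also after adjustment). The rank correlations of *Shh* were 0.52 and -0.07, and without the 2 libraries farthest from the median r was 0.14 and 0.40. With 9 libraries, the 0.56 of *Shh* and the 0.58 left for *Ihh* cannot be told apart.

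*Ptch1*, the receptor and a classical target of the pathway (chromosome 13, 63511532 to 63565520), had the highest estimate of the 9 genes for MUT relative to HET. It was at 23.4, 12.5 and 13.3 FPKM across the WT libraries, 9.72, 11.4 and 15.0 across HET and 23.5, 23.6 and 12.7 across MUT. The values fell into an upper level held by WT-1, MUT-1 and MUT-2 and a lower level that held the other 6 libraries, and neither level belonged to 1 genotype. The mean±s.d. of the 3 libraries was 16.4±6.04 for WT, 12.1±2.70 for HET and 19.9±6.27 for MUT. MUT exceeded HET by 1.65-fold in mean FPKM and by 0.65 on the log2(FPKM+1) scale (SE 0.22, 95% confidence interval 0.17 to 1.13), with MUT higher in 8 of the 9 possible pairs of libraries. The unadjusted p was 0.0131 in limma, the adjusted p was 0.738, and an exact permutation test gave p = 0.2 where 3 libraries against 3 cannot go below 0.1. Leaving out 1 library at a time moved the difference between 0.51 and 0.93. It was 0.62 without HET-2, the library with liver markers, and 0.81 without HET-3, that with muscle markers.

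*Smo*, the membrane protein that passes the signal on (chromosome 6, 29735496 to 29761366), was high and steady. It was at 72.7, 69.0 and 63.9 FPKM across the WT libraries, 64.1, 64.9 and 68.2 across HET and 75.1, 78.6 and 70.5 across MUT. Every MUT library lay above every HET library, and the MUT and WT ranges overlapped. The mean was 1.14-fold higher in MUT than in HET, 0.18 on the log2(FPKM+1) scale (SE 0.11, adjusted p = 0.738 in limma, exact permutation p = 0.1, the smallest possible), and it was 0.17 without HET-2 and 0.21 without HET-3. Groups that do not overlap in this direction were found for 5.19% of the 10081 genes tested, and for *Smo* among the 9 Hedgehog genes.

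*Gli1*, a Gli activator and itself a target, did not follow *Ptch1*. It was at 17.1, 12.9 and 14.5 FPKM across the WT libraries, 14.2, 17.3 and 14.5 across HET and 17.2, 13.7 and 13.0 across MUT. The highest value was in HET-2, where *Ptch1* was low, and MUT-2, at the upper level of *Ptch1*, was among the lowest for *Gli1*. The difference between MUT and HET was -0.07 on the log2(FPKM+1) scale (SE 0.13, 95% confidence interval -0.35 to 0.21, adjusted p = 0.895 in limma). The locus (chromosome 10, 127321963 to 127341579) is assembled together with *Arhgap9* on the opposite strand, which has its own value of 0.93 to 1.76 FPKM.

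*Gli2*, the main Gli activator in most tissues, and *Gli3*, known chiefly as a repressor, moved together. *Gli2* (chromosome 1, 118834060 to 119053619) was at 5.90, 5.17 and 4.05 FPKM across the WT libraries, 4.57, 5.07 and 4.81 across HET and 6.32, 4.83 and 5.25 across MUT. *Gli3* (chromosome 13, 15463722 to 15730025) was at 9.58, 8.48 and 7.25 FPKM across the WT libraries, 8.10, 7.91 and 8.73 across HET and 10.3, 6.85 and 8.34 across MUT. For both genes MUT-1 and WT-1 were the 2 highest libraries, and the 3 genotypes overlapped. The within-library ratio of *Gli3* to *Gli2* had a coefficient of variation of 7.64%, the steadiest of the 7 ratios computed. It ran from 1.42 in MUT-2 to 1.81 in HET-3. By a narrow margin it was lower in each MUT library (1.42 to 1.624) than in each WT library (1.625 to 1.79). The exact permutation p was 0.1, the smallest possible, and the share of gene pairs separated in this way was not computed. MUT and HET differed by 0.15 for *Gli2* (SE 0.15, adjusted p = 0.798 in limma) and by 0.02 for *Gli3* (SE 0.14, adjusted p = 0.975 in limma).

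*Sufu*, which holds Gli proteins inactive in the cytoplasm (chromosome 19, 46396895 to 46488804), was at 22.4, 23.1 and 15.49 FPKM across the WT libraries, 22.3, 19.5 and 18.3 across HET and 24.7, 22.1 and 23.1 across MUT. One library, WT-3, lay below all others, and MUT-2 fell just under HET-1, so the MUT and HET ranges overlapped. The mean was 1.16-fold higher in MUT than in HET, 0.21 on the log2(FPKM+1) scale (SE 0.11, adjusted p = 0.738 in limma, exact permutation p = 0.2).

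*Hhip*, a membrane protein that binds and sequesters ligand and is induced by the pathway (chromosome 8, 79965850 to 80058008), was the least abundant of the 9 genes. It was at 0.924, 0.764 and 0.880 FPKM across the WT libraries, 0.539, 0.600 and 0.813 across HET and 0.693, 0.857 and 0.452 across MUT. The WT mean was the highest, at 0.856±0.083 (s.d. of 3 libraries) against 0.651±0.144 for HET and 0.667±0.204 for MUT, and 1 library of HET and 1 of MUT reached into the WT range. The difference from WT was -0.17 for HET (SE 0.08, adjusted p = 1.00 in limma, exact permutation p = 0.2) and -0.16 for MUT (SE 0.10, adjusted p = 1.00, exact permutation p = 0.2). At under 1 FPKM, the log2(FPKM+1) scale understates fold changes: the ratio of mean FPKM was 0.760 for HET over WT and 0.780 for MUT over WT.

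Across the 9 genes, the question was whether Hedgehog transcripts differ between kidneys that can lose both stromal *Ntn1* alleles and those that can lose 1 or carry no Cre. No gene of the 9 changed at an adjusted p under 0.05 in any comparison. Of the 9, 6 passed the minimum of 5 FPKM in either genotype in each comparison, and *Shh*, *Ihh* and *Hhip* were taken from a fit with a minimum of 0.1 FPKM. Between MUT and HET, 0 of the 6 passed the adjusted threshold, as did 0% of all 10081 genes, and 1 of the 6, *Ptch1*, had an unadjusted p under 0.05, against 6.31% of all genes. Between MUT and WT, 0 of the 6 had an adjusted or an unadjusted p under 0.05, against 0% and 0.644% of 10096 genes, and between HET and WT also 0 of the 6, against 0% and 1.07% of 10105 genes.

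The estimates for MUT relative to HET were above 0 for 8 of the 9 genes, against 45.9% of all 10081 genes tested. They ranged from -0.07 (*Gli1*) to 0.65 (*Ptch1*) on the log2(FPKM+1) scale, where the median of all genes was -0.02. In the 0.1 FPKM fit, they were 0.10 for *Shh* (SE 0.14), 0.16 for *Ihh* (SE 0.23) and 0.01 for *Hhip* (SE 0.11), with adjusted p of 0.864, 0.870 and 0.984 in limma. The 95% confidence intervals spanned 0 for every gene except *Ptch1*, and the unadjusted p of *Ptch1* in limma was 0.082 without MUT-1 and 0.059 without MUT-2. With GC correction the unadjusted p of *Sufu* in limma, 0.021, also fell under the threshold. For MUT relative to WT, 5 estimates were above 0 and 4 below, where 48.7% of all genes were above 0. The highest were 0.27 for *Ptch1* (SE 0.27), 0.21 for *Sufu* (SE 0.16) and 0.17 for *Shh* (SE 0.14). Each of these leaned on single libraries: without 1 library they ranged from 0.11 (without WT-2) to 0.55 (without MUT-3) for *Ptch1*, from 0.031 (without WT-3) to 0.31 (without WT-2) for *Sufu* and from 0.077 (without MUT-2) to 0.32 (without MUT-3) for *Shh*. For HET relative to WT, 2 estimates were above 0 and 7 below, where 52.4% of all genes were above 0. The lowest were -0.38 for *Ptch1* (SE 0.22, and -0.11 without WT-1) and -0.24 for *Ihh* (SE 0.21). With a pseudocount of 0.1, which weighs low genes more, *Ihh* was at -0.47 and *Ptch1* at -0.40 for HET relative to WT, and *Hhip* at -0.35 and *Ptch1* at 0.28 for MUT relative to WT. Each pair of comparisons shares a genotype, so the 3 sets of estimates are not independent.

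**Figure D2:**
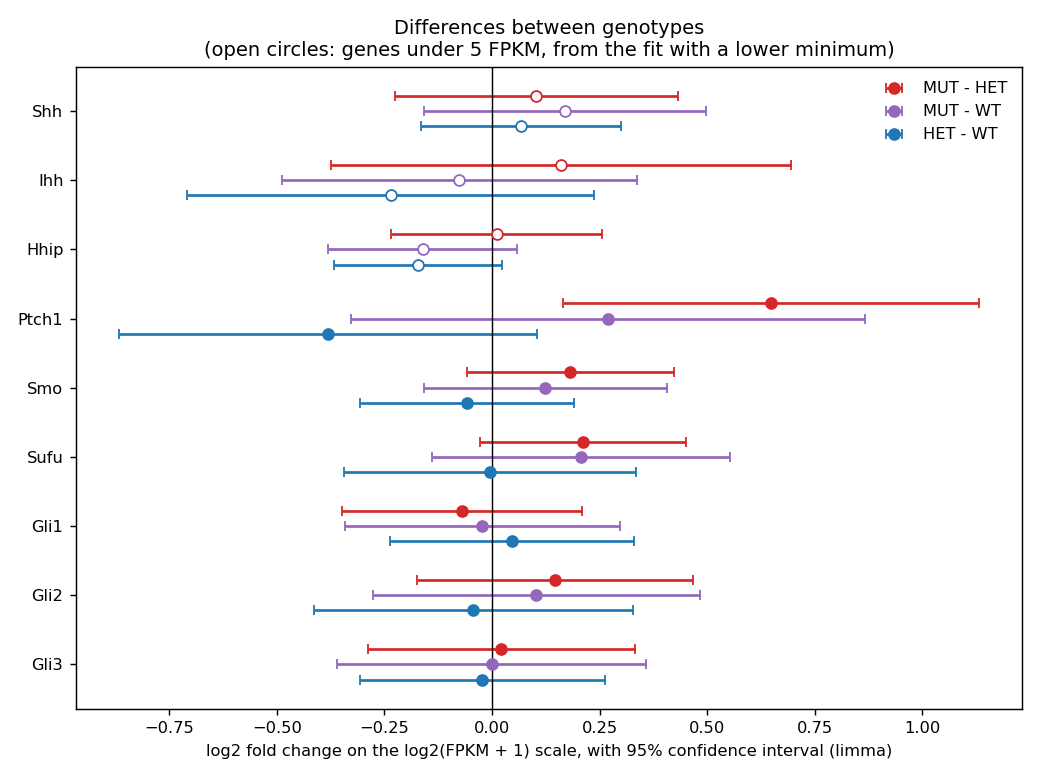
Log2 fold change on the log2(FPKM + 1) scale (horizontal axis) of each Hedgehog gene for MUT against HET, MUT against WT and HET against WT, with 95% confidence intervals from limma; open circles are the 3 genes under 5 FPKM. Apart from *Ptch1* in MUT against HET (0.65, interval 0.17 to 1.13), every interval includes 0.

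The 3 target genes did not move as 1 group. Pearson's r across the 9 libraries, which share their normalization, was 0.37 between *Ptch1* and *Gli1*, 0.59 between *Ptch1* and *Hhip* and 0.18 between *Gli1* and *Hhip*, given as a description. The closest pair of the 36 was *Ptch1* and *Smo* (r = 0.87), ahead of *Gli2* and *Gli3* (0.82) and *Gli2* and *Sufu* (0.75), and the most opposed was *Ihh* and *Gli3* (-0.38). *Smo* thus tracked *Ptch1* with a much smaller amplitude, from 63.9 to 78.6 FPKM where *Ptch1* went from 9.72 to 23.6.

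**Figure D3:**
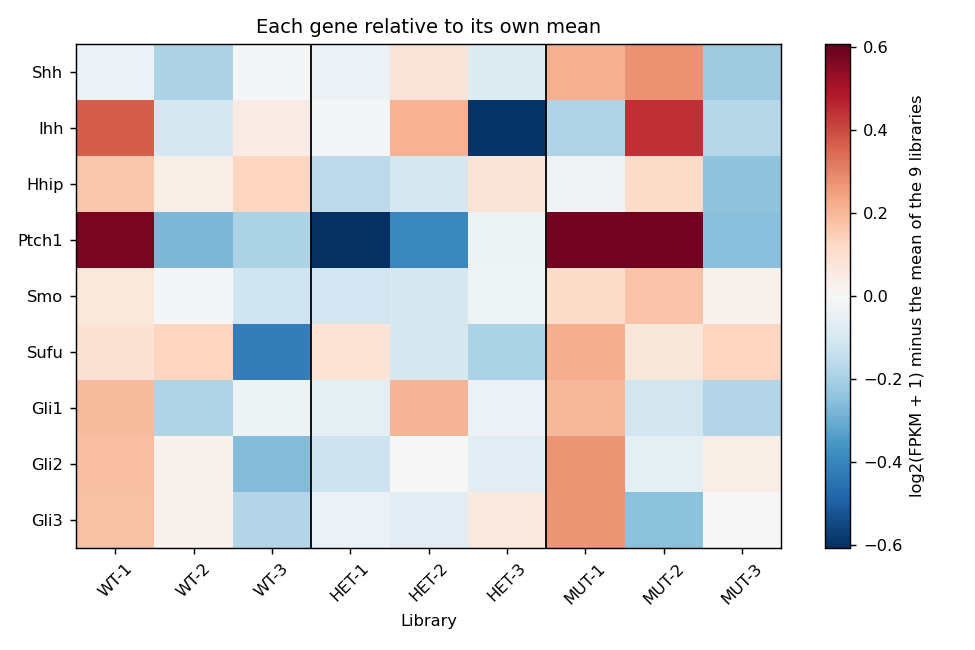
Each Hedgehog gene (rows) in each library (columns), as log2(FPKM + 1) minus that gene's mean over the 9 libraries; red is above and blue below the mean, and black lines divide WT, HET and MUT. *Ptch1* is red in WT-1, MUT-1 and MUT-2, *Gli2* and *Gli3* are most red in WT-1 and MUT-1, and *Ihh* is most blue in HET-3.

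Within-library ratios set *Ptch1* against the other genes without the scaling between libraries. The ratio of *Ptch1* to *Hhip* was 25.3, 16.4 and 15.1 across the WT libraries, 18.0, 19.1 and 18.5 across HET and 33.9, 27.5 and 28.1 across MUT. Here all 3 MUT libraries lay above all 6 others, MUT-3 included, where *Ptch1* itself was low and *Hhip* at its lowest value. The mean±s.d. of the 3 libraries was 29.8±3.58 for MUT, 18.5±0.535 for HET and 18.9±5.54 for WT, and exact permutation tests gave p = 0.1 for MUT against HET and against WT, the smallest possible. Among the 7 ratios compared this was the one that separated MUT from both other genotypes, and *Hhip* values under 1 FPKM enter it. MUT-3, where *Hhip* was lowest, had a rough depth of 0.616 relative to WT-1. The share of other gene pairs whose ratio separates MUT in this way was not computed. *Ptch1* to *Gli1* ranged from 0.661 to 1.72 and *Ptch1* to *Smo* from 0.152 to 0.321, with MUT and HET overlapping in both (exact permutation p = 0.2 each).

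**Figure D4:**
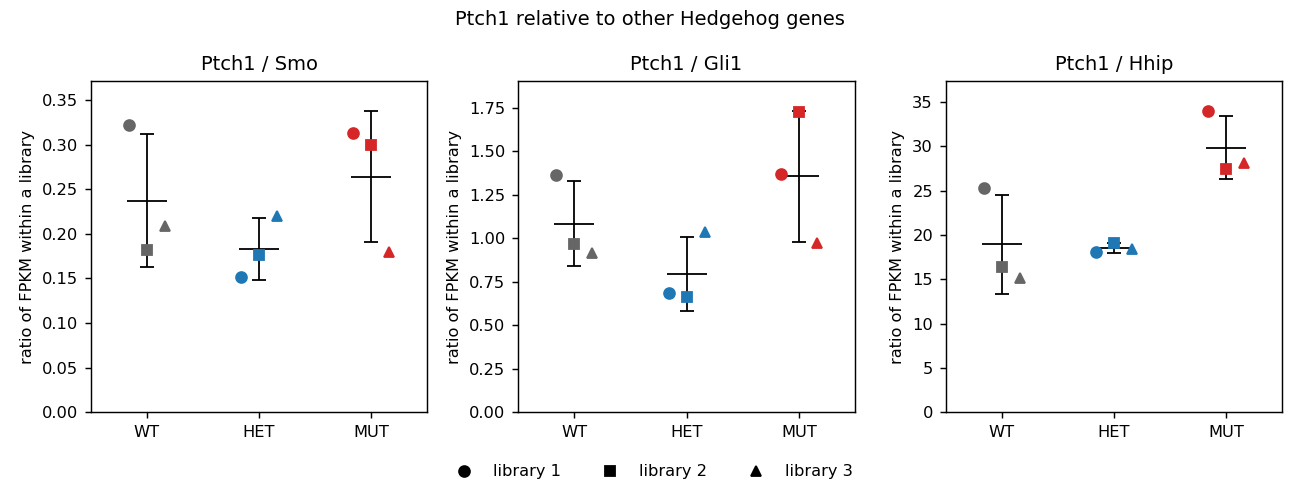
Ratio of *Ptch1* FPKM to *Smo*, *Gli1* and *Hhip* FPKM within each library (vertical axes, from 0), by genotype; points are libraries, shapes give the library number, and black bars are the mean and SD of 3 libraries. Only for *Ptch1* to *Hhip* do the 3 MUT libraries (27.5 to 33.9) lie above all others (15.1 to 25.3).

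The library pattern of *Ptch1* was shared by many genes. WT-1, MUT-1 and MUT-2 were the 3 highest libraries for 1119 of the 10164 genes with at least 5 FPKM in a genotype (11.0%), among them *Ptch1* and *Smo*, and the 3 lowest for another 1710 (16.8%). Counting genes with a Pearson r of at least 0.9 or at most -0.9, *Ptch1* had 291 positive and 662 negative partners (9.38% of genes), against 2.31% for *Smo*, 3.08% for *Gli2* and 0.443% for *Gli1*. The 5 genes most like *Ptch1* were *Bicc1* (r = 0.987), an RNA-binding protein gene mutated in cystic kidneys, *Rab11fip4* (0.987), *Prkx* (0.985), a kinase gene, *Man2a2* (0.985), a Golgi mannosidase gene, and the joined locus of *Ntn3* and *Tbc1d24* (0.982). *Bicc1* was at 33.8 FPKM in WT-1, 31.6 in MUT-1 and 31.2 in MUT-2, and at 16.9 to 22.1 in the other 6 libraries. Among the genes most like *Gli1* were *Parp6* (r = 0.963), *Git2* (0.927), *Ano6* (0.926) and *Numb* (0.925), none of which is among the 5 most like *Ptch1*.

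Markers of one cell type moved with *Ptch1*. The summed FPKM of 7 podocyte markers, of which *Wt1* was the most abundant, was 229 in WT-1, 198 in MUT-1 and 204 in MUT-2, and 127 to 170 in the other 6 libraries. Of the 6 podocyte markers with at least 5 FPKM, 3 had the same 3 highest libraries as *Ptch1*, against 11.0% of all genes. *Podxl* and *Synpo* were among them. No podocyte marker of the 6 tested passed the adjusted threshold in any comparison. All 6 estimates for MUT relative to HET were above 0 (median 0.22 on the log2(FPKM+1) scale), against 45.9% of all genes. The part of cell composition in the *Ptch1* values was not tested.

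Genes of ligand release and reception came next in the pathway. Of 16 listed genes 12 passed 5 FPKM, and 0 changed at the adjusted threshold in any comparison. Between MUT and HET, 9 estimates were above 0 and 3 below, where 45.9% of all genes were above 0. Their median was 0.14 on the log2(FPKM+1) scale. Of the 12, 2 had an unadjusted p under 0.05 in limma, against 6.31% of all genes. The median was 0.070 without MUT-1. These 2 genes were *Scube3*, whose product helps release lipid-modified ligand from cells (0.57, SE 0.19), and *Hs6st1*, a heparan sulfate sulfotransferase gene (0.37, SE 0.12), both with adjusted p = 0.738 in limma. *Scube3* was at 36.4, 21.4 and 19.0 FPKM across the WT libraries, 18.7, 17.3 and 23.7 across HET and 39.8, 29.7 and 22.3 across MUT. WT-1, MUT-1 and MUT-2 were again the 3 highest libraries for 3 of the 12, against 11.0% of all genes. *Scube3* and *Hs6st1* were among these 3 genes. At the low end stood the glypican gene *Gpc3* (-0.19, SE 0.16), whose product competes for ligand, and *Lrp2* (-0.10, SE 0.17). The medians were 0.05 for MUT relative to WT and -0.07 for HET relative to WT. Of the coreceptors, *Gas1* was abundant at 70.3 to 98.5 FPKM and *Boc* and *Cdon* were at 10.5 to 15.0 and 6.18 to 9.08 FPKM.

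Genes of signal transduction and Gli processing gave a similar picture. Of 32 loci found 27 passed 5 FPKM and 0 changed at the adjusted threshold in any comparison. Between MUT and HET 17 estimates were above 0 and 10 below, where 45.9% of all genes were above 0. Their median was 0.07, and 0.125 without MUT-3. Of the 27, 2 had an unadjusted p under 0.05 in limma, against 6.31% of all genes. The highest estimate was that of *Gpr161*, a ciliary receptor gene that restrains the pathway through cAMP (0.62, SE 0.28, adjusted p = 0.738 in limma). *Gpr161* was at 7.47, 3.83 and 4.65 FPKM across the WT libraries, 2.59, 2.77 and 6.003 across HET and 7.75, 6.80 and 4.08 across MUT. The same 3 libraries, WT-1, MUT-1 and MUT-2, were the highest for 11 of the 27, against 11.0% of all genes. *Gpr161*, *Adcy6* and *Gsk3b* were among the 11. These 3 libraries were picked from the values of *Ptch1*, and the difference in share was not tested. The lowest estimates belonged to the ciliary transport genes *Ift88* (-0.15, SE 0.12) and *Kif3a* (-0.11, SE 0.14). The medians were 0.06 for MUT relative to WT and -0.05 for HET relative to WT.

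Genes known to respond to Hedgehog signaling in various tissues were centred near 0. Of 18 listed, 11 passed 5 FPKM, and 0 changed at the adjusted threshold in any comparison. Between MUT and HET 4 estimates were above 0 and 7 below (median -0.05), where 45.9% of all genes were above 0. An unadjusted p under 0.05 in limma was found for 0 of the 11, against 6.31% of all genes. The highest were *Foxl1*, a mesenchymal forkhead gene (0.25, SE 0.18), and *Hsd11b2* (0.20, SE 0.12), and the lowest *Igfbp6* (-0.19, SE 0.19) and *Mycn* (-0.15, SE 0.12). *Bmp4*, a mesenchymal growth factor gene of the ureter, had a mean±s.d. of 15.1±0.800 FPKM for WT, 15.47±1.54 for HET and 14.9±1.31 for MUT. The median of the list was 0.07 for MUT relative to WT and 0.00 for HET relative to WT.

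**Figure D5:**
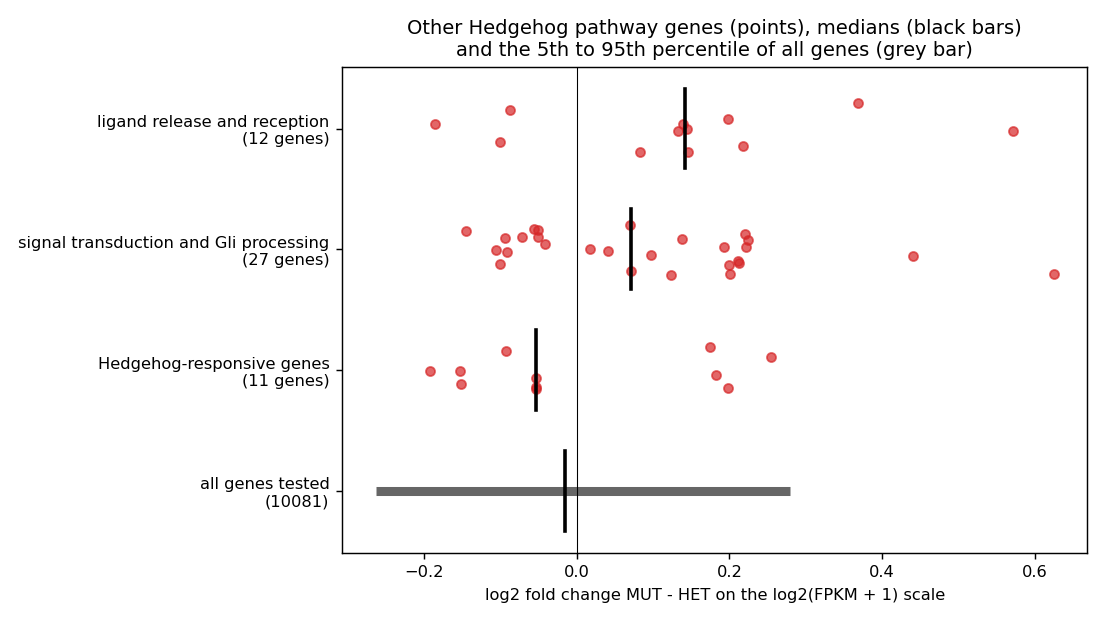
Log2 fold change of MUT against HET on the log2(FPKM + 1) scale (horizontal axis) for the tested genes of 3 Hedgehog lists (points, spread vertically for visibility), with list medians as black bars at 0.14, 0.07 and -0.05, and the 5th to 95th percentile of all 10081 genes as a grey bar (-0.26 to 0.28, median -0.02). Beyond the grey bar on the right lie 4 points, *Scube3*, *Hs6st1* and *Gpr161* among them.

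One low gene of that list, *Foxf1*, was singled out after its values were seen. *Foxf1*, a forkhead gene of the ureteric mesenchyme that Shh is known to induce there, was at 0.620, 0.283 and 0.432 FPKM across the WT libraries, 0.762, 0.936 and 0.719 across HET and 0.483, 0.430 and 0.391 across MUT. Every HET library lay above every WT and every MUT library, as was the case for 166 of the 16027 genes of at least 0.1 FPKM (1.04%). In the 0.1 FPKM fit MUT differed from HET by -0.33 on the log2(FPKM+1) scale (SE 0.07, unadjusted p = 0.00176 and adjusted p = 0.791 in limma) and HET from WT by 0.33 (SE 0.10, adjusted p = 1.00 in limma). Without HET-2 the difference between MUT and HET was -0.28. The summed markers of ureter mesenchyme and smooth muscle were at 176 to 233 FPKM in HET, 149 to 172 in WT and 153 to 179 in MUT. Their highest value was in HET-2, and the HET and MUT ranges overlapped, MUT-2 lying above HET-3. The part of these markers in the *Foxf1* values was not tested.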

How the data were processed

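Libraries of mRNA came from whole kidneys at E15.5, 3 per genotype. The authors mapped the reads by STAR, built transcripts by cufflinks and cuffmerge, and obtained FPKM (fragments scaled to transcript length and library size) from CuffDiff. The deposited FPKM were not rescaled here. The submitters' processing notes name mm10, and versions are not given in the sources used here. Depth is unknown, so no counting interval is given, and precision rests on 3 libraries per genotype.

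Genes whose mean reached 5 FPKM in 1 or both genotypes entered limma 3.58.1 (R 4.3.3; lmFit, eBayes with a trend) as log2(FPKM+1), without a replicate block, and each fit held the 6 libraries of the genotypes compared. Tests were two-sided, with Benjamini-Hochberg adjustment over all genes and a threshold of 0.05. *Shh*, *Ihh* and *Hhip* were taken from the same fit at a minimum of 0.1 FPKM. Single values were compared by exact permutation tests over libraries. Gene names and GC content came from GENCODE mouse release 21, and promoter windows from RefSeq on GRCm38.p6. In simulated data for MUT against HET (9975 genes), 0%, 38%, 84% and 96% of genes changed by 1.2, 1.5, 2 and 4-fold were called. There, 3 unchanged genes were also called. The simulated noise was drawn independently for each gene, with 50 genes changed at each fold. It holds no library pattern shared between genes, so these rates need not apply to the real libraries.

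The 9 genes, the pathway lists and the marker lists were chosen with earlier results of these data known. Named genes are the 9, the 2 highest and 2 lowest MUT against HET estimates of each pathway list, listed genes past the adjusted threshold (0), the 5 genes most like *Ptch1* and *Gli1*, *Ntn1*, *Foxd1* and the top gene of marker lists. Some genes that this rule names are not reported here. Other genes were named after their values were seen. The alternatives tried were another pseudocount or FPKM minimum, rescaling by median ratio or quantiles, a joint fit of the 9 libraries, no trend, GC correction, a replicate block and each library left out. Same-numbered libraries did not deviate together, so the block was not used.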

Additional observations from a re-analysis of the deposited data

How the results depend on the processing

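No Hedgehog gene was called under any alternative, in any of the 3 comparisons. The number of all genes called was 0 in each comparison under every alternative except those that leave out 1 library, where it ranged from 0 to 3 in each comparison. It was 1 without HET-1 or MUT-2 and 3 without MUT-3 (*Mir5133*, *Dancr* and *Mir17hg*) for MUT against HET, 1 without MUT-2 or WT-2 and 3 without WT-1 (*Akr1b7*, *Snora3* and *Sprr1a*) for MUT against WT, and 1 without HET-3 or WT-3 and 3 without WT-2 (*Mir5133*, *Snora21* and *Snord35a*) for HET against WT. *Ptch1* in MUT relative to HET stayed above 0, from 0.58 to 0.69 under the other alternatives and from 0.51 to 0.93 without 1 library, with adjusted p in limma between 0.194 and 0.999.

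Of 474 values for the differences of the 9 genes, 434 kept their direction and 40 turned, all for differences with unadjusted and adjusted p above the threshold. For MUT relative to HET, *Gli3* was -0.00033 after quantile normalization and *Hhip* -0.0072 with GC correction, with or without the block. For MUT relative to WT, *Gli3* was 0.000616 with a pseudocount of 3, 0.012 after median-ratio rescaling and 0.014 after quantile normalization. For HET relative to WT, *Gli1* was -0.021 with GC correction, with or without the block, and after quantile normalization *Gli3* was 0.013 and *Sufu* 0.0011. Without 1 library, the differences between MUT and HET ranged from -0.071 to 0.33 for *Ihh*, -0.18 to 0.016 for *Gli1*, -0.11 to 0.15 for *Gli3* and -0.071 to 0.11 for *Hhip*. Those between MUT and WT ranged from -0.28 to 0.056 for *Ihh*, -0.14 to 0.078 for *Gli1*, -0.0196 to 0.20 for *Gli2* and -0.13 to 0.13 for *Gli3*. Those between HET and WT ranged from -0.042 to 0.15 for *Gli1*, -0.17 to 0.058 for *Gli2*, -0.12 to 0.064 for *Gli3* and -0.18 to 0.094 for *Sufu*. The median of the Hedgehog-responsive list ranged from -0.069 to 0.021 for MUT relative to HET and from -0.033 to 0.13 for MUT relative to WT without 1 library. Medians of other lists also turned for MUT relative to WT, from -0.033 to 0.15 for ligand release and reception and from -0.016 to 0.12 for signal transduction, which turned for HET relative to WT too, from -0.082 to 0.021, as did the responsive list, from -0.085 to 0.068. Of the other named genes, *Lrp2* (-0.26 to 0.035) and *Kif3a* (-0.18 to 0.0091) turned between MUT and HET without 1 library, and *Foxf1* kept its direction at -0.76 to -0.15 under the other alternatives. The difference in the ratio of *Ptch1* to *Hhip* was 9.25 to 12.5 between MUT and HET and 8.84 to 14.1 between MUT and WT without 1 library, an alternative chosen after seeing the data, as were those at 0.1 FPKM. The cause of these turns was not tested.

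Same-numbered libraries correlated by -0.13 on average between MUT and HET (from -0.32 to 0.06) and by 0.09 between MUT and WT (from -0.26 to 0.56, the highest being MUT-1 with WT-1), so the numbers were not taken as pairs. No source says whether a number stands for a cross. The P values in the tables of the study come from same-numbered pairs, although its methods do not describe a pairing. With the replicate block, 0 genes were called in each comparison, and the difference of *Ptch1* between MUT and HET remained 0.65 (adjusted p = 0.933 in limma). Depth limits *Shh*, *Ihh*, *Hhip* and *Foxf1* most, at a few FPKM or less.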
